A study of Mus musculus with 4 samples.

Results

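Csn3, Csn2, Wfdc18, Wfdc2, Lcn2, Trf, Wap and Clu, 8 genes of the mammary secretory programme, were followed through 4 transplanted mouse mammary tumours. They are 8 of the 31053 mouse genes of the count tables. The genes were chosen by their measured UMIs in these same libraries, namely the lower Lcn2 and Csn3 in T/NK-like cells of IL1α-/- hosts and the high levels of the set in tumour cells, so these patterns are described and not tested. The near-empty barcodes come from the same libraries and are not independent of that choice. Each gene was read in 3 compartments: tumour epithelial cells, defined as called cells in which Epcam, Krt8 and Krt18 made up at least 0.2% of the unique molecular identifiers (UMIs, each standing for 1 captured transcript), all other called cells, and near-empty barcodes of at most 100 UMIs, which hold RNA that floated free in the suspension. The rule gave 585 tumour epithelial cells among 14052 called cells.

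The tumours were grown from H605, a HER2+ mouse mammary tumour line, in FVB/NJ mice whose age is given as 6 to 8 weeks. The same number of H605 cells had been placed in the mammary pad of each host, and the tumours were taken on day 14, in pairs on separate days, digested for 45 min, enriched for live cells and run as droplet-based 3′ single-cell libraries. WT hosts carried 2 of the tumours and IL1α-/- hosts the other 2, so the deleted gene was missing from the host and not from the transplanted cells, and each tumour was 1 sample. The labels do not state the age, sex or litter of each host, how the H605 line was derived, or which replicates share a day, and the entry for cell type holds the age range.

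Caseins such as κ-casein (Csn3) and β-casein (Csn2) and the whey acidic protein (Wap) are the main secreted proteins of rodent milk, and their genes are switched on in luminal alveolar cells through prolactin, Stat5 and the transcription factor Elf5. Whey acidic protein has a cysteine-rich core that is shared by a family of small secreted proteins, among them Wfdc18 and Wfdc2. Lipocalin 2 (Lcn2), which binds iron-loaded siderophores, transferrin (Trf), the iron carrier of plasma and rodent milk, and the secreted chaperone clusterin (Clu) are made by many epithelia and also by some blood cells.

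On GRCm38, with positions from GENCODE vM21, Csn2 and Csn3 lie in the casein gene cluster of chromosome 5, with Csn1s2a and Csn1s2b between them, Csn2 at chr5:87692624-87699630 on the minus strand and Csn3 at chr5:87925579-87932665 on the plus strand. Wfdc18 (chr11:83709015-83711348, plus strand) and Wap (chr11:6635482-6638637, minus strand) share chromosome 11 but not a neighbourhood. Wfdc2 (chr2:164562413-164568510, plus strand) and Lcn2 (chr2:32384633-32388252, minus strand) lie 35.3 and 96.9 Mb from Il1a, the gene deleted in the IL1α-/- hosts. Trf lies at chr9:103204001-103230444 on the minus strand and Clu at chr14:65968483-65981547 on the plus strand. Csn3 overlaps the antisense gene 1700066N21Rik and Trf overlaps Gm20425 on its own strand, so reads of these pairs could be shared between gene models.

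RefSeq's promoter table for GRCm38.p6 held 6 entries for 5 of the 8 genes, and 4 are printed because they pair the milk genes that were almost silent here (Csn2, Wap) with the secreted genes that were abundant (Wfdc18, Lcn2). Each shows the 250 bases before the RefSeq start, 5′ to 3′ on the gene's own strand. This start can differ from that of GENCODE: by the positions above, the whole Lcn2 window and most of the Csn2 window lie inside the gene. Capitals mark matches on either strand to TTCNNNGAA, the palindromic form of a Stat5 site, or to the TATA box letters TATAAA.
Csn2 (chr5:87699426-87699675, minus strand): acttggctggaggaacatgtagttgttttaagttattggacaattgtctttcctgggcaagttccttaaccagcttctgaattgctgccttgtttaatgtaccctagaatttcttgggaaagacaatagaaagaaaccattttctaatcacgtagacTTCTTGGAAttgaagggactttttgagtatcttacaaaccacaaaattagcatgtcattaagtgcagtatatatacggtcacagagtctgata
Wap (chr11:6638650-6638899, minus strand): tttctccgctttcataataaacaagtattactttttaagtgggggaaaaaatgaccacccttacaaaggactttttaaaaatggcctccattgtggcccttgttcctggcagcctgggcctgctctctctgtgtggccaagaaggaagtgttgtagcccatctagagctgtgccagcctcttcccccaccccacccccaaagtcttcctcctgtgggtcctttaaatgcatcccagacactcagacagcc
Wfdc18 (chr11:83708754-83709003, plus strand): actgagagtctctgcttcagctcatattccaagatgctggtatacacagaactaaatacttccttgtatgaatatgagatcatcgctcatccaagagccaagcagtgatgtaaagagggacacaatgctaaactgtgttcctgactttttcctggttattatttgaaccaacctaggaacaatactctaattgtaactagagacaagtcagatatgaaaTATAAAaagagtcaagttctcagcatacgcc
Lcn2 (chr2:32387740-32387989, minus strand): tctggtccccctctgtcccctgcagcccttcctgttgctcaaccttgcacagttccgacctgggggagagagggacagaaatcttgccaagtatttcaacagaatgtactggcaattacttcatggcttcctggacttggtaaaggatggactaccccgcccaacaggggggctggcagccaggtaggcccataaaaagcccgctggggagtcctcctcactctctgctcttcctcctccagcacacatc
Csn2 held 1 match to TTCNNNGAA, whose first base lies 93 bases before the RefSeq start. Wfdc18 held 1 match to TATAAA at 31 bases before its RefSeq start. Neither string occurred in the Wap and Lcn2 windows or in the 2 Wfdc2 entries. Over all 32851 promoters of this length, 7.02% held TTCNNNGAA and 12.4% held TATAAA or its reverse complement. The match in the Csn2 promoter thus stood in a gene that was close to silent in these tumours.

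The libraries held 3861 and 3840 called cells in WT replicates 1 and 2 and 3130 and 3221 in IL1α-/- replicates 1 and 2, with medians of 3109, 4203, 1348 and 2896 UMIs, so IL1α-/- replicate 1 was the shallowest. Near-empty barcodes gave 1930460, 2345692, 743600 and 1224431 UMIs in the same order, and any 2 libraries shared at most 5 cell barcodes. Other cells of WT replicates 1 and 2 held 64 and 105 Il1a UMIs, those of IL1α-/- replicates 1 and 2 held 1 and 0, and the tags may lie outside the deleted part. Tumour epithelial cells made up 8.65% of called cells in WT replicate 1 (exact 95% interval 7.78 to 9.58%), 5.81% in WT replicate 2 (5.09 to 6.59%), 0.831% in IL1α-/- replicate 1 (0.543 to 1.21%) and 0.0621% in IL1α-/- replicate 2 (0.00752 to 0.224%). These are 334, 223, 26 and 2 cells, and the groups did not overlap (exact two-sided permutation p = 0.333, the smallest that 2 against 2 samples allow). Intervals and floors throughout cover counting error only, and p-values measure the spread between these tumours, which the labels do not state to be from separate litters or cultures.

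The 0.2% limit matched the clustering closely but not fully. Of the 585 cells at or above it, 584 fell in the 2 clusters named tumour epithelial-like. These clusters were built without the 8 genes and without Epcam, Krt8 and Krt18. The markers that named them did include Epcam, Krt8 and Krt18, so the match is not an independent check of the limit. A further 151 cells of those clusters lay under the limit (114, 31, 4 and 2 per sample in the order above) and so counted as other cells. The 5 cells just inside the limit had 0.200 to 0.208% of their UMIs on the 3 keratin and adhesion genes and the 5 just outside had 0.195 to 0.199%, and all but 1 of these 10 were in the tumour clusters. Levels in other cells are therefore given without those 151 cells unless stated.

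Most of the secreted-gene RNA of each WT tumour sat in the tumour epithelial cells. In WT replicate 1 these cells held 21.0% of all UMIs but 77.1 to 92.1% of the UMIs of Csn3, Wfdc18, Wfdc2, Lcn2, Trf and Clu, and in WT replicate 2 they held 15.6% of all UMIs and 82.6 to 92.2% of those 6 genes. In IL1α-/- replicate 1 the cells held 2.53% of all UMIs and 61.0 to 86.5% of the 6 genes. Together the 8 genes made up 3.74 and 2.91% of the tumour epithelial UMIs of WT replicates 1 and 2 and 3.46 and 0.847% of those of IL1α-/- replicates 1 and 2, a mean of 3.33 ± 0.586% against 2.16 ± 1.85% (SD, n = 2 each). The order of the groups rested on IL1α-/- replicate 2, whose 2 cells hold 2834 UMIs in all: without it the IL1α-/- value was higher by 0.135 percentage points.

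**Figure D1:**
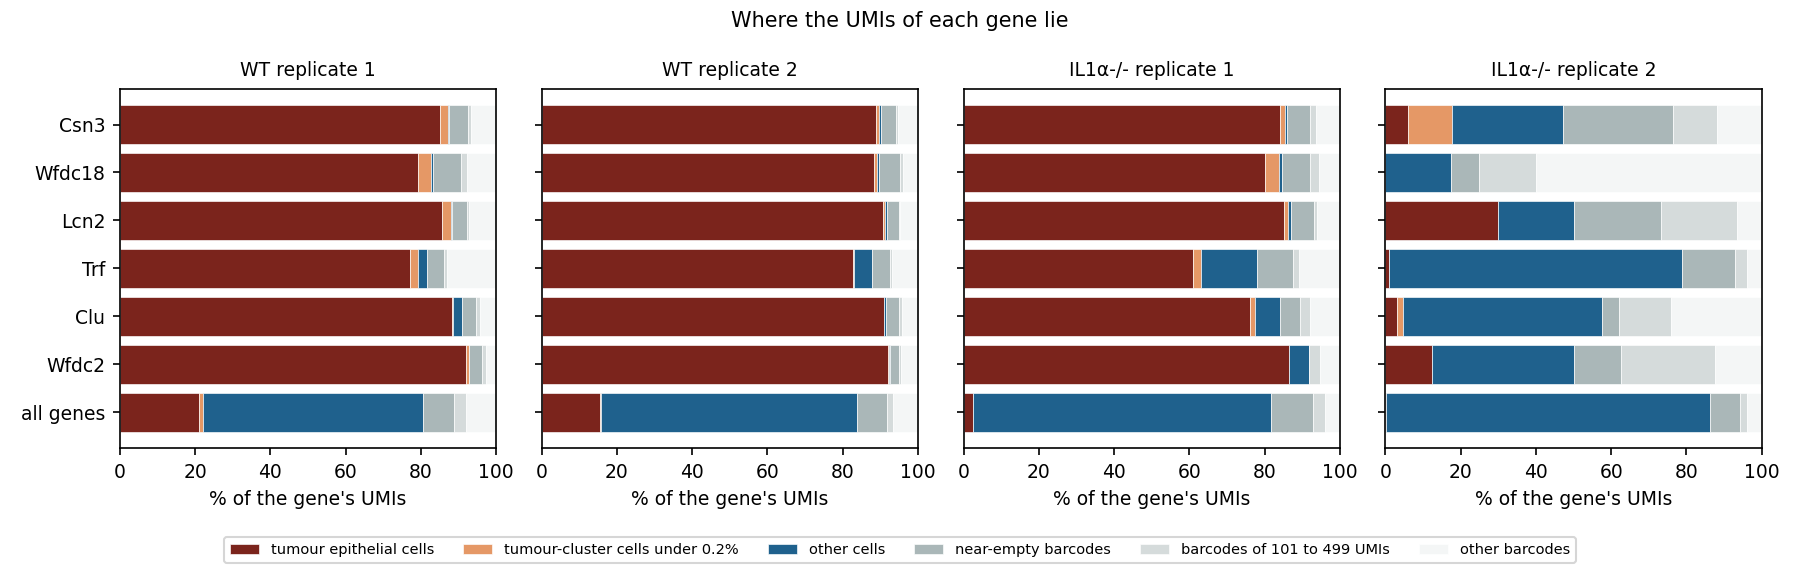
Share of each gene's UMIs (horizontal axis, percent) by the kind of barcode that holds them, 1 panel per sample, with all genes together as the bottom bar. In the 2 WT samples and IL1α-/- replicate 1 the dark red tumour epithelial part dominates for all 6 genes, while in IL1α-/- replicate 2 other cells hold 77.8% of Trf UMIs and 53.0% of Clu UMIs.

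Among the casein genes and Wap, κ-casein alone stood at a high level in these tumour cells. Levels are given in counts-per-million units (CPM), the UMIs of a gene relative to all mouse UMIs of the same cells or barcodes. Csn3 stood at 10837 CPM in WT replicate 1, 9348 in WT replicate 2, 7633 in IL1α-/- replicate 1 and 353 in IL1α-/- replicate 2, where it rested on 1 UMI (interval 8.93 to 1966 CPM). It had a UMI in 96.7, 93.7 and 88.5% of tumour cells in the first 3 samples, against 5.51, 4.18 and 0.197% of T/NK-like cells, a class that should lack it. The median tumour cell held 9913, 9133 and 5323 UMIs in these samples and the median T/NK-like cell 3081, 4591 and 1333. With each cell thinned to 1000 UMIs, which kept 280, 189 and 24 tumour cells and 1741, 1747 and 1502 T/NK-like cells, the tumour shares were 95.6, 91.7 and 86.9% and the T/NK-like shares 2.11, 0.944 and 0.128%.

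β-casein and whey acidic protein showed the opposite. For Csn2, WT replicate 1 had 294 UMIs (59.8 CPM) and WT replicate 2 had 119 (26.4 CPM), with 0 in IL1α-/- replicate 1 (3 counts would be 17.7 CPM) and 2 in IL1α-/- replicate 2. One cell held 179 of the 294 UMIs and 1 cell held 62 of the 119, and a Csn2 UMI was present in 2.10 and 7.62% of WT tumour cells. Wap was rarer still, with 4 UMIs in the first WT sample (0.813 CPM), 14 in the other (3.1 CPM) and 0 in both IL1α-/- samples.

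The few cells rich in Csn2 were not alike. The 2 richest cells of WT replicate 1, with 179 and 91 Csn2 UMIs among 18137 and 7805 in all, also held 23 and 42 UMIs of Csn1s2a, another casein gene, 12 and 2 of Csn1s1 and 2 and 1 of the α-lactalbumin gene Lalba, but 0 of Wap. The richest cell of WT replicate 2, with 62 Csn2 UMIs among 49898, held 0 UMIs of these 3 genes. It held 146 of Wfdc2, against 93 of Csn3.

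Among the small cysteine-rich proteins, Wfdc18 was abundant and Wfdc2 was lower. Wfdc18 stood at 9209 and 4858 CPM in the tumour cells of WT replicates 1 and 2 and at 13956 CPM in IL1α-/- replicate 1, the highest value of any of the 8 genes in any sample, and had 0 UMIs in the 2 cells of IL1α-/- replicate 2 (floor of 3 counts 1059 CPM). Wfdc2 stood at 345, 875, 189 and 353 CPM in WT replicates 1 and 2 and IL1α-/- replicates 1 and 2, the last from 1 UMI. The groups overlapped for both genes, and no test of tumour cells was run because the IL1α-/- samples had 26 and 2 of them.

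Of the secreted iron-binding proteins, Lcn2 was close to κ-casein in level in both WT samples, whereas Trf was lower than κ-casein there. Lcn2 stood at 9948, 7649, 9593 and 3176 CPM in the order of samples above, and the last value rests on 9 UMIs. Trf stood at 6253, 4596, 2934 and 3176 CPM, again with 9 UMIs in IL1α-/- replicate 2. Both WT samples lay above both IL1α-/- samples for Trf, as they did for Csn3, and the groups overlapped for Lcn2. How many of all genes separated the groups in this way was not counted, here or below. Such separations are therefore given as levels only and not as results about these genes.

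Clu, the secreted chaperone, stood at 781 CPM in WT replicate 1, 1793 in WT replicate 2, 336 in IL1α-/- replicate 1 and 706 in IL1α-/- replicate 2, where it rests on 2 UMIs (interval 85.5 to 2549 CPM) and lay just under WT replicate 1. Both WT samples had the order Csn3, Lcn2, Wfdc18, Trf, Clu, Wfdc2, Csn2, Wap. UMIs of a 3′ library count transcript ends, so these levels were compared between genes without dividing by length. Averaged over the WT samples, Csn3 (10092 ± 1052 CPM), Lcn2 (8799 ± 1625) and Wfdc18 (7034 ± 3077) had mean ± SD ranges that overlapped (n = 2), as did Wfdc18 and Trf (5425 ± 1172), whereas Clu (1287 ± 716) and Wfdc2 (610 ± 374) lay below those 4 in both samples.

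**Figure D2:**
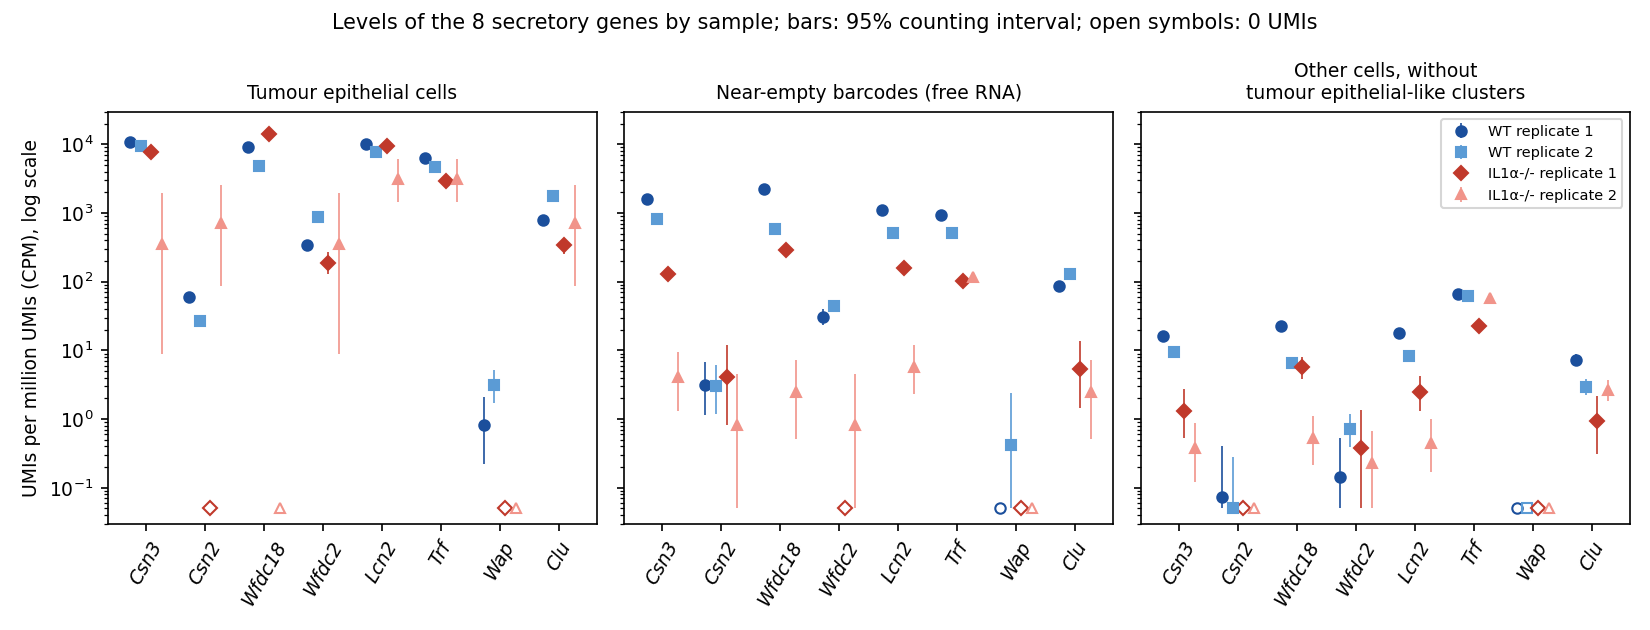
Level in CPM (vertical axis, log scale) of the 8 genes in tumour epithelial cells, near-empty barcodes and other cells without the tumour epithelial-like clusters, 1 symbol per sample with its 95% counting interval and open symbols for 0 UMIs. Csn3, Wfdc18, Lcn2 and Trf lie between 2934 and 13956 CPM in the tumour cells of the first 3 samples, and Wap stays under the other 7 genes in the WT samples.

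Within a tumour the genes did not vary together as 1 programme. Across tumour epithelial cells with at least 5000 UMIs, each thinned to 5000, Csn3, Wfdc18, Lcn2 and Trf were positively rank-correlated in all 6 pairs, with Spearman rho from 0.20 to 0.61 (median 0.33) over 213 cells of WT replicate 1 and from 0.59 to 0.71 (median 0.65) over 135 cells of WT replicate 2. Wfdc2 went with Clu (rho 0.27 and 0.57) and against the other 4 (rho from -0.38 to -0.29 and from -0.52 to -0.31). Clu against those 4 ranged from -0.28 to 0.15 and from -0.34 to -0.11. This grouping was chosen after the values were seen, the cells of a sample share 1 library, and it is given as a description.

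**Figure D3:**
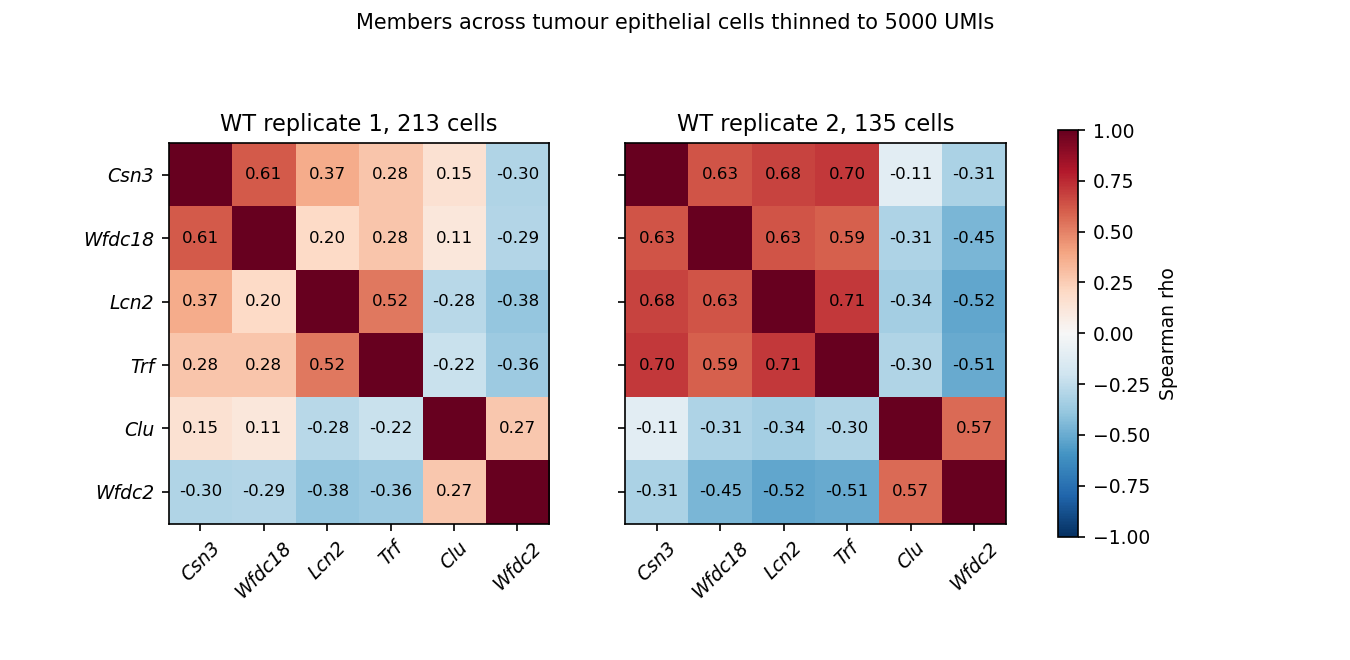
Spearman rho between the 6 abundant genes across tumour epithelial cells thinned to 5000 UMIs, 213 cells of WT replicate 1 on the left and 135 of WT replicate 2 on the right, red for positive and blue for negative. The block of Csn3, Wfdc18, Lcn2 and Trf is positive in both samples and Wfdc2 is negative with each of the 4.

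The spread among cells differed between the genes. In WT replicate 1 the 10% of tumour cells with most UMIs of a gene held 40.5% of Csn3 UMIs, 70.1% of Clu UMIs and 80.2% of Wfdc2 UMIs, and in WT replicate 2 48.6, 61.6 and 66.2%. Cells were not thinned for these shares, so differences in depth between cells enter them, and the part due to depth was not measured. The median tumour cell of WT replicate 1 had 8818 CPM of Csn3 and 5152 CPM of Wfdc18, and the 90th percentile of cells was 19249 and 26826 CPM. In WT replicate 2 the medians were 6205 and 1950 CPM and the 90th percentiles 19213 and 12285 CPM, so the median was lower for Wfdc18 in both samples and the order at the 90th percentile differed between them.

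Both tumour epithelial-like clusters carried the genes in the WT samples. Among cells at or above the limit, those of the larger cluster, with median depths of 15587 and 22897 UMIs, had 3.78 and 2.94% of their UMIs on the 8 genes in WT replicates 1 and 2, and those of the shallow one, with medians of 928 and 1281 UMIs, had 2.72 and 2.39%. Of Csn3, Wfdc18, Lcn2 and Trf, Trf differed most, at 6369 and 4748 CPM in the larger cluster and 2711 and 1635 CPM in the shallow one. The same cells of the shallow cluster had a median of 0.0155 and 0.0171% mitochondrial UMIs against 6.63 and 5.69% in the larger cluster, and how that bears on Trf was not tested.

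Genes with the most similar pattern were sought over 37 sums, those of each class in each sample with at least 20 cells and the 4 near-empty sums, by Pearson's r of log2(CPM + 5) among 6182 genes with a mean of at least 20 CPM. The sums share libraries, and the values are a description. Csn3 was most like Krt8 (r = 0.97), a keratin that the tumour rule itself used, and Fxyd3 (0.96), Wfdc18 most like Fxyd3 (0.95) and Cldn7 (0.94), and Lcn2 most like Cldn7 (0.89) and Mia (0.89). Wfdc2 was most like the keratin Krt7 (0.99) and the chloride channel Ano1 (0.98), Trf most like Aldoc (0.92) and Ehf (0.85), and Clu most like the claudin Cldn3 (0.88) and Ehf (0.87). Csn2 and Wap were under the level limit.

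The remaining milk genes were mostly low in the same cells. Of 15 other milk protein and milk fat genes, 6 reached 10 CPM in the pooled tumour epithelial cells and 2 (Glycam1, Lpo) had 0 UMIs. The highest were Mfge8, a protein of milk fat globules, at 975 CPM, and Ltf, the iron-binding lactoferrin, at 646 CPM, followed by Pigr (122 CPM), Plin2 (87.7 CPM), Xdh (44.4 CPM) and Lalba (10.3 CPM). Single libraries weigh on these pooled values: Lalba stood at 19.5 and 0.665 CPM and Pigr at 35.4 and 209 CPM in WT replicates 1 and 2, so Lalba reached 10 CPM in the first of them alone. Of 12 lactation regulators 9 reached 10 CPM: the transcription factor Nfib stood at 506 CPM, the Stat5 target Socs2 at 466, Elf5 at 175, the prolactin receptor Prlr at 142, Gata3 at 127, Cish at 41.1, Jak2 at 33.0, Stat5b at 20.9 and Stat5a at 18.7. In the other cells of each sample Cish, Jak2, Stat5b and Stat5a stood higher than these pooled values, Jak2 at 85.0 to 114 CPM. Nfib, Socs2, Elf5, Prlr and Gata3 stood lower there. Of 11 other whey acidic protein family and related genes, only Slpi (87.9 CPM) and Wfdc3 (13.95 CPM) reached 10 CPM. Of 7 receptors and partners of the secreted proteins, only the transferrin receptor Tfrc (100 CPM) and Vldlr (73.5 CPM), which can bind clusterin, did.

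The basal markers Krt5, Acta2 and Trp63 were close to absent, and the other basal and luminal genes ranged widely in level. Of 10 basal and luminal mammary genes, 6 reached 10 CPM in the pooled tumour cells: Krt15 at 284, Cd14 at 201, Aldh1a3 at 124, Kit at 90.3, Krt14 at 14.9 and Prom1 at 14.2. The other 4 were the basal markers Krt5, Acta2 and Trp63, at 0.208, 0.417 and 0.104 CPM, and the luminal factor Foxa1 at 1.67 CPM. Krt14, a basal keratin, stood at 3.25 and 28.1 CPM in WT replicates 1 and 2, so its pooled value came mostly from the second of these. Of the 10 epithelial reference genes, which the rule did not use, 9 reached 10 CPM, among them Cldn7 at 564, Cldn3 at 472, Krt7 at 445, Ehf at 230, Cdh1 at 185, Erbb2 at 167, Cldn4 at 117 and Elf3 at 17.7. The 1 gene below that level was the luminal keratin Krt19 at 8.43 CPM. This pooled value comes mostly from WT cells, where Krt19 stood at 0.610 and 12.9 CPM in replicates 1 and 2. It stood at 118 CPM in IL1α-/- replicate 1, from 20 UMIs, and had 0 UMIs in IL1α-/- replicate 2.

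Outside the tumour cells, the question was how much of each gene lay in free RNA and whether it differed with host genotype. In near-empty barcodes Csn3 stood at 1580 and 810 CPM in WT replicates 1 and 2 and at 130 and 4.08 CPM in IL1α-/- replicates 1 and 2. Wfdc18 stood at 2200, 589, 290 and 2.45 CPM and Lcn2 at 1123, 515, 157 and 5.72 CPM. For these 3 genes both IL1α-/- samples lay below both WT samples, and by ratio the IL1α-/- samples lay further apart than the WT samples did. The share of all genes that separated so was not counted.

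Trf, Clu and Wfdc2 were also lower in the near-empty barcodes of IL1α-/- tumours. Trf stood at 924 and 511 CPM in the WT samples and at 104 and 116 CPM in the IL1α-/- samples, so its 2 IL1α-/- samples were close to each other, both below the WT samples. Clu stood at 87.5, 128, 5.38 and 2.45 CPM and Wfdc2 at 31.1, 44.8, 0 and 0.817 CPM, with 7 and 1 UMIs in the IL1α-/- samples together. Csn2 (3.11, 2.98, 4.03 and 0.817 CPM) overlapped between the groups, and Wap had 1 UMI in all near-empty barcodes.

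An edgeR quasi-likelihood test across 9928 genes, with Benjamini-Hochberg adjustment, called 3 of the 8 genes lower in IL1α-/- near-empty barcodes, where 0.514% of all genes tested were called lower and 1.22% in either direction. The rule read these same barcodes, and Wfdc2 and Clu had almost no UMIs in the IL1α-/- samples and so entered the test through the WT samples, so the count is a description and supports nothing further. Trf fell by 2.85 on the log2 scale (SE 0.320, adjusted p = 0.0270) and Clu fell by 5.03 (SE 0.428, adjusted p = 0.0241). Wfdc2 passed with an adjusted p of 0.0270, and since it had 165 UMIs in WT and 1 in IL1α-/- samples its pooled ratio of 75.9 has a counting interval from 13.4 to 3017. Csn3 (log2 fold change -4.28, SE 1.11, adjusted p = 0.0925), Lcn2 (-3.44, SE 1.08, adjusted p = 0.132) and Wfdc18 (-3.33, SE 1.38, adjusted p = 0.223) did not pass in edgeR, and Csn2 and Wap failed the filter on low counts, which a gene could pass through the WT samples alone.

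Single libraries moved these edgeR calls. Without IL1α-/- replicate 2, Wfdc2 (adjusted p = 0.0613) and Trf (adjusted p = 0.0945) no longer passed and Clu did. Without WT replicate 1, WT replicate 2 or IL1α-/- replicate 1, Csn3, Lcn2 and Wfdc18 all passed, with adjusted p-values no higher than 0.0249. The share of tumour epithelial cells was 8.65 and 5.81% against 0.831 and 0.0621%. The summed share of the 8 genes in near-empty UMIs, 0.595 and 0.260% against 0.0691 and 0.0132%, was ordered alike over the 4 samples. Taken singly, Trf, Clu and Wfdc2 did not keep that order. Clu and Wfdc2 were higher in WT replicate 2 than in WT replicate 1, and Trf was higher in IL1α-/- replicate 2 than in IL1α-/- replicate 1. How the 2 shares are linked was not tested. Fewer tumour cells and less RNA per tumour cell cannot be told apart in free RNA.

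Other epithelial genes also had lower values in IL1α-/- near-empty barcodes, and their part in the result above was not tested. Of the 10 epithelial reference genes 8 were tested, all 8 had a lower value in IL1α-/- samples, and 3 passed in edgeR: Krt7 (log2 fold change -5.63, adjusted p = 0.0270), Cldn3 (-5.45, adjusted p = 0.0289) and Ehf (-4.09, adjusted p = 0.0497). Their median log2 fold change was -2.99, against -0.02 over all genes tested. Of 11 lactation regulators tested 1 passed, Elf5 (-4.90, adjusted p = 0.0428), and of 5 milk protein and milk fat genes tested 1 passed, Mfge8 (-1.54, adjusted p = 0.0348). Of 5 basal and luminal genes tested 1 passed, Acta2 (-2.44, adjusted p = 0.0477), which tumour epithelial cells barely held, and of 2 other whey acidic protein family genes and 5 receptors and partners none passed in edgeR, where 2026 of all genes had an unadjusted p under 0.05.

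In T/NK-like cells Csn3, Wfdc18 and Lcn2 lay well below their level in free RNA. Where the UMIs of these genes in T/NK-like cells came from was not tested. Csn3 stood there at 18.4, 8.24, 1.24 and 0 CPM in WT replicates 1 and 2 and IL1α-/- replicates 1 and 2, Wfdc18 at 18.8, 5.12, 4.67 and 0.134 CPM, and Lcn2 at 15.7, 5.42, 0 and 0 CPM. In WT replicate 1 these levels were 1.16% (Csn3), 0.855% (Wfdc18) and 1.40% (Lcn2) of those in the near-empty barcodes of the same library, and in WT replicate 2 they were 1.02, 0.870 and 1.05%. In IL1α-/- replicate 1 the T/NK-like values were 0.954% for Csn3, 1.61% for Wfdc18 and, for Lcn2, 0% with an upper bound of 0.741%. In IL1α-/- replicate 2, with 5, 3 and 7 near-empty UMIs of the 3 genes, Wfdc18 was 5.46% (0.104 to 68.0%) and Csn3 and Lcn2 had 0 UMIs in T/NK-like cells, and over all other cells without the tumour clusters Csn3 was 9.30%, Wfdc18 21.7% and Lcn2 7.97% of the near-empty level. Lcn2 was at least 34.1-fold lower in IL1α-/- than in WT T/NK-like cells over the 2 groups, with a floor of 3 counts, and this difference had led to its choice.

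Over all other cells outside the tumour clusters both WT samples again lay above both IL1α-/- samples for these 3 genes. Here too the share of all genes that separated so was not counted. Without the tumour-cluster cells, Csn3 stood at 16.0, 9.49, 1.32 and 0.380 CPM, Wfdc18 at 22.7, 6.65, 5.66 and 0.532 CPM, and Lcn2 at 18.1, 8.22, 2.45 and 0.456 CPM. With the 151 tumour-cluster cells kept as the rule has it, the WT means were 72.2 ± 57.1 CPM for Csn3, 90.4 ± 103 for Wfdc18 and 65.1 ± 67.2 for Lcn2 (SD, n = 2), against 12.8 ± 4.62, 14.6 ± 11.3 and 13.1 ± 6.96 without them. In both WT samples these few cells thus held more UMIs of the 3 genes than all remaining other cells. Among the 13476 genes fitted in edgeR over other cells, 0.0297% were called in either direction, 0.0148% higher and 0.0148% lower, and the 8 genes are not tested there.

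Transferrin RNA was also present in mononuclear phagocyte-like cells. Trf stood there at 323, 265, 171 and 371 CPM in WT replicates 1 and 2 and IL1α-/- replicates 1 and 2, and the groups overlapped (294 ± 40.7 against 271 ± 141 CPM, SD, n = 2 each). Unthinned, 63.2, 50.4, 24.2 and 50% of these cells had a Trf UMI, against 6.51, 6.07, 1.52 and 3.17% of T/NK-like cells. After thinning to 1000 UMIs, which kept 347, 570, 129 and 361 phagocyte-like cells, the phagocyte-like shares were 29.3, 21.8, 15.9 and 25.6% and the T/NK-like shares 2.26, 1.24, 1.02 and 1.19%.

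Set against the near-empty barcodes, the Trf level in phagocyte-like cells was 34.97% (95% counting interval 31.9 to 38.3%) in WT replicate 1, 51.9% (47.7 to 56.5%) in WT replicate 2, 165% (115 to 234%) in IL1α-/- replicate 1 and 320% (266 to 386%) in IL1α-/- replicate 2. Csn3 in the same cells was 0.952 and 1.56% of its near-empty level in the WT samples and had 0 UMIs in the IL1α-/- samples. Within a library the 2 genes therefore did not keep 1 ratio to the free RNA. Phagocyte-like cells held 67.5, 82.2, 48.4 and 83.2% of the Trf UMIs of other cells, and made up 11.5, 19.5, 5.32 and 12.4% of them.

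Lcn2 had a further place in neutrophil-like cells, a cell type in which lipocalin 2 is stored in granules. It stood there at 1188 CPM in WT replicate 1, 361 in WT replicate 2, 1760 in IL1α-/- replicate 1 and 252 in IL1α-/- replicate 2, from 53, 35, 8 and 3 UMIs in 33, 68, 6 and 9 cells. In the WT samples this was 106% (79.0 to 139%) and 70.0% (48.5 to 97.9%) of the near-empty level, and a UMI of Lcn2 was present in 30.3 and 25% of the cells, whose median depths were 1270 and 1405 UMIs, against 4.45 and 2.73% of T/NK-like cells. The IL1α-/- values rest on too few cells for a comparison.

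Clu outside the tumour cells was sparse. Other cells without the tumour clusters held 100, 58, 5 and 35 Clu UMIs in WT replicates 1 and 2 and IL1α-/- replicates 1 and 2, spread over 42, 47, 5 and 11 cells. Conventional dendritic-like cells had 60, 5, 0 and 23 Clu UMIs (114, 7.40, 0 and 70.4 CPM), and single cells held 25 of the 60 and 22 of the 23. Fibroblast-like cells had 26, 12, 4 and 9 UMIs (11.9, 4.45, 4.54 and 4.64 CPM). T/NK-like cells had 0.889, 2.61, 0 and 0.134 CPM.

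**Figure D4:**
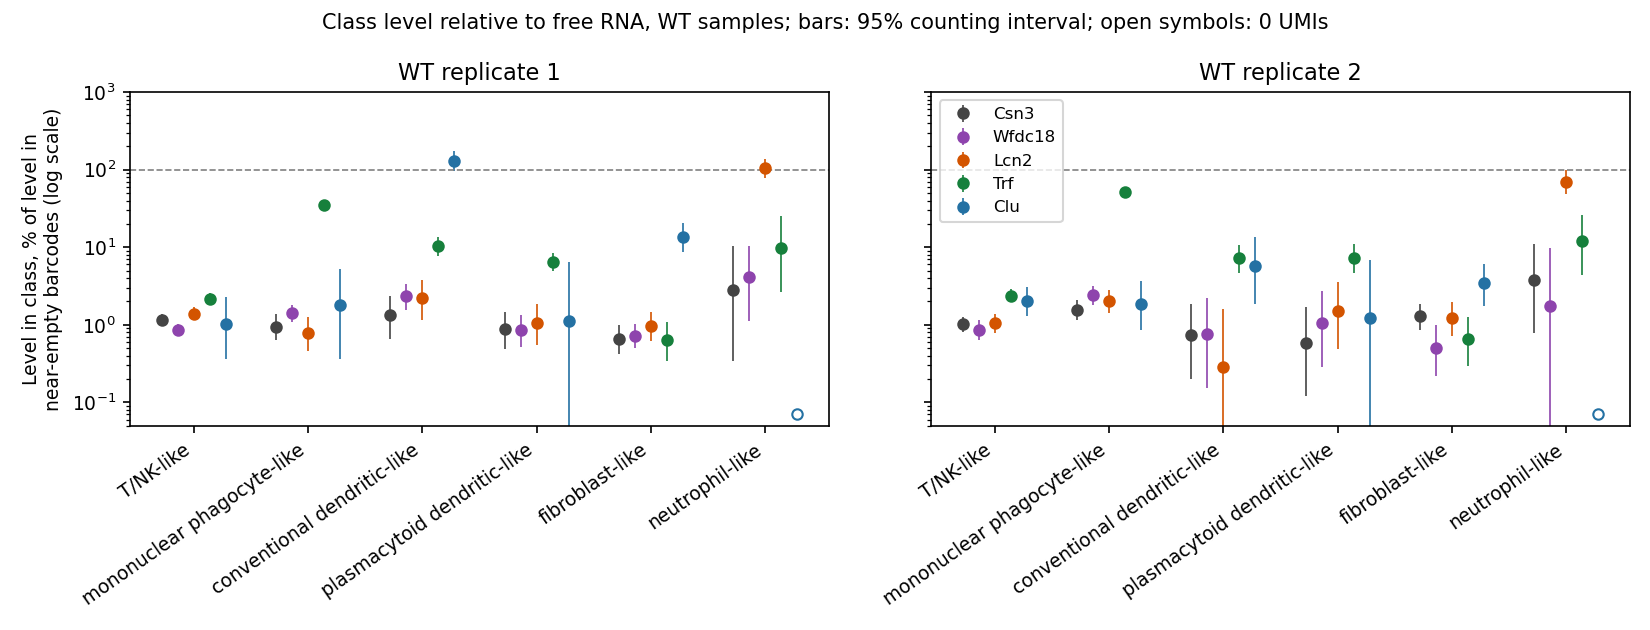
Level of 5 genes in 6 cell classes of the WT samples as a percent of the level in near-empty barcodes of the same library (log scale), with 95% counting intervals, open symbols for 0 UMIs and a dashed line at equal levels. Csn3 and Wfdc18 stay near 1% in T/NK-like cells, Trf reaches 34.97 and 51.9% in phagocyte-like cells, and Lcn2 reaches 106 and 70.0% in neutrophil-like cells.

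Whether a gene differed with host genotype in other cells beyond its difference in free RNA was asked with an interaction test, in which each sample contributed its other cells and its near-empty barcodes. Over the 12349 genes tested, 2 of the 8 genes passed in edgeR as higher in IL1α-/- other cells relative to near-empty barcodes, against 0.575% of all genes called in that direction, 0.462% in the other and 1.04% in either. Trf was higher by 1.68 (SE 0.258, adjusted p = 6.82e-05) and Clu by 3.85 (SE 0.678, adjusted p = 5.21e-04) on the log2 scale. The rule read these same cells and barcodes, so both calls are a description and support nothing further. The values are differences of a ratio, and neither gene was at a higher level in the other cells of IL1α-/- tumours. With the 151 tumour-cluster cells kept, as in the test, Trf stood there at 128 and 65.0 CPM in WT replicates 1 and 2 and at 26.2 and 58.7 CPM in IL1α-/- replicates 1 and 2, and Clu at 8.16, 2.93, 1.13 and 2.73 CPM, so both WT samples lay above both IL1α-/- samples for each gene. The Clu value rests on 7 near-empty UMIs and 42 other-cell UMIs in the IL1α-/- samples, 22 of them in 1 dendritic-like cell. Of the 10 epithelial reference genes 8 entered the same test, 6 with a higher and 2 with a lower value, and none passed in edgeR. Their median log2 difference was 1.05, against -0.02 over all genes tested, so a higher ratio was not particular to Trf and Clu.

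The other genes did not pass this edgeR test. The rule read the same cells and barcodes for them too. Csn3 and Lcn2 were chosen by their levels in T/NK-like cells, which are part of the other cells. Their values are therefore a description, and do not show that a gene differed equally in other cells and in free RNA. Csn3 differed by -0.06 (95% interval -0.68 to 0.56, adjusted p = 0.976) and Lcn2 by -0.18 (-0.95 to 0.59, adjusted p = 0.923), Wfdc18 by 1.09 (0.40 to 1.77, adjusted p = 0.141), Wfdc2 by 4.59 (1.69 to 7.48, adjusted p = 0.141) and Csn2 by -1.26 (-5.11 to 2.59, adjusted p = 0.888), and Wap was not tested. Without the 151 tumour-cluster cells, an alternative chosen after seeing the data, Csn3 turned to 0.76 and Lcn2 to 0.57, both still short of the threshold. Without IL1α-/- replicate 2 neither Trf (0.99, adjusted p = 0.0903) nor Clu (2.22, adjusted p = 0.449) passed, and Clu also did not pass in DESeq2 (adjusted p = 0.952) or without TMM scaling (adjusted p = 0.0740).

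In T/NK-like cells taken alone, Trf was 2.18 and 2.38% of the near-empty level in WT replicates 1 and 2 against 10.2 and 7.61% in IL1α-/- replicates 1 and 2. The counting intervals of the single WT libraries did not overlap those of the IL1α-/- libraries (1.82 to 2.60% and 1.96 to 2.87% against 6.61 to 15.5% and 5.596 to 10.3%). They hold no spread between tumours, so this is no test of genotype. The Trf level itself was not higher in IL1α-/- T/NK-like cells, at 9.70 ± 1.24 CPM against 16.1 ± 5.65 CPM in WT (SD, n = 2 each). The higher percent thus went with a lower near-empty level. The share of phagocyte-like cells moved between the samples as given above, and its part in the Trf difference was not tested. Of the gene lists, Mfge8 (2.57, adjusted p = 2.83e-08), Nfib (1.82, adjusted p = 8.56e-05) and Socs2 (1.17, adjusted p = 0.0470) were also called higher in this edgeR test, and Wfdc17 (-0.86, adjusted p = 0.0423) and Wfdc21 (-4.29, adjusted p = 0.0208) lower.

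**Figure D5:**
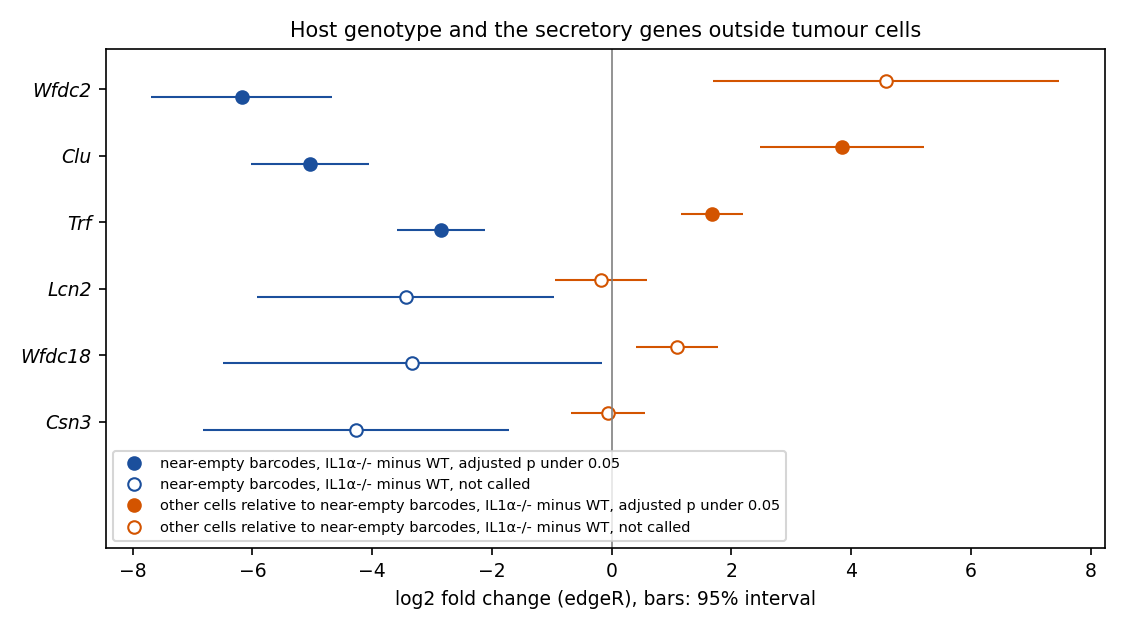
Log2 fold change with its 95% interval (horizontal axis) for 6 genes, blue for near-empty barcodes of IL1α-/- against WT tumours and orange for other cells relative to near-empty barcodes, with filled points at an adjusted p under 0.05. All 6 blue points lie below 0 and 3 are filled, and of the orange points only Trf (1.68) and Clu (3.85) are filled.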

How the data were processed

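The deposited values are raw UMI counts per gene and barcode, made by the authors with Cell Ranger 3.1.0 on mm10, per the submitters' processing notes. Feature names carry a human and a mouse prefix, and mouse genes alone were used. Barcodes with at least 500 UMIs, 250 genes and at most 20% mitochondrial UMIs were kept. Those under 5000 UMIs were tested against the near-empty profile (10000 simulations, false discovery rate 0.001), a test checked on simulated data. The top-scoring 0.8% per 1000 cells in Scrublet (scanpy 1.11.5) were removed as doublets. Clustering used 2000 variable genes, 30 components, 15 neighbours and Leiden resolution 1; classes were named from markers and end in "-like". UMIs were summed per sample and tested with edgeR 4.0.16 (filterByExpr, TMM, quasi-likelihood, threshold 0.05), with DESeq2 1.42.0 as an alternative. Genotype fits used all 4 samples. The genes, gene lists and the tests were chosen with earlier results of these data known. All 8 genes are named; list genes are named with values from 10 CPM in pooled tumour cells. List genes below that level, and those named for a test result, were named after their values were seen.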

Additional observations from a re-analysis of the deposited data

Results flagged for a closer look

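Trf and Clu differed between host genotypes in how their level in other cells related to that in near-empty barcodes of the same library, by the interaction test in edgeR. The rule read these same UMIs, so both differences are given as a description. Neither gene was at a higher level in the other cells of IL1α-/- tumours. The epithelial reference genes had a median log2 difference of 1.05 in the same test. Trf had a log2 difference of 1.68, and of 2.11 without tumour-cluster cells. Without those cells its other-cell level was 7.28 and 11.9% of the near-empty level in WT replicates 1 and 2 and 22.2 and 50.7% in IL1α-/- replicates 1 and 2. Clu had a log2 difference of 3.85, and of 3.86 without tumour-cluster cells, where its level was 8.32 and 2.29% of the near-empty level in the WT samples and 17.5% (95% counting interval 3.77 to 88.4%) and 108% (34.2 to 551%) in the IL1α-/- samples. Neither gene's difference of 1.68 or 3.85 passed without IL1α-/- replicate 2.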

How the results depend on the processing

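With 2 tumours a group, single libraries set many calls. The near-empty comparison called 121 genes in edgeR, 207 in DESeq2 and 990 without the low-count filter, and 17 to 641 when each library was left out. The other-cell comparison called 4 in edgeR (2495 at an unadjusted p under 0.05), 568 in DESeq2, 729 without the filter and 0 with any library left out (1229 to 2460 unadjusted; DESeq2 was not run there). The ratio comparison called 128 in edgeR, 24 in DESeq2, 47 without TMM, 74 with near-empty barcodes up to 50 UMIs, 84 without tumour-cluster cells and 64 to 252 with a library left out. Without TMM the median log2 fold change of all genes moved from -0.02 to 0.13 in near-empty barcodes and from -0.02 to -0.19 in the ratio, where 16 of the 47 calls were higher against 71 of 128. In other cells 2 of 4 calls were higher, 3 of 4 without TMM and 3 of 5 with RLE factors.

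The labels do not say that a replicate number marks a collection day. With the replicate block, 552 genes were called in near-empty barcodes and 755 in other cells, and Csn3, Wfdc18 and Lcn2 passed in near-empty barcodes (adjusted p = 0.00982, 0.0206 and 0.0132 in edgeR). Across genes, deviations of same-numbered samples correlated at 0.23 in near-empty barcodes and 0.43 in other cells.

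The summed share of the 8 genes in tumour cells, 1.17 percentage points lower in IL1α-/- samples (-1.17), reversed to 0.269 without the shallow tumour cluster, which drops IL1α-/- replicate 2, and ranged from -2.48 to 0.135 with a library left out. In the ratio comparison Csn3 reversed to 0.32 in DESeq2, 0.27 with cells from 1000 UMIs, 0.76 without tumour-cluster cells and 0.38 and 1.58 without WT replicate 1 and IL1α-/- replicate 1; Lcn2 reversed to 0.057 in DESeq2, 0.57 without tumour-cluster cells and 0.63 and 0.71 without those same libraries. With a library left out Csn3 ranged from -0.42 to 1.58 and Lcn2 from -0.87 to 0.71, and none of these passed. The cause was not tested. Leaving out tumour-cluster cells or the shallow cluster was chosen after seeing the data. The test of tumour cells and its alternatives were not run. The 6 genes tested in near-empty barcodes kept their direction in all 10 alternatives. Leaving out a library leaves 1 sample in its group, taken to vary like the other group.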

Other observations

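Barcodes between the near-empty limit and the lower limit for cells, which enter no comparison, held the 8 genes at 0.319 and 0.179% of their UMIs in WT replicates 1 and 2 and at 0.0542 and 0.0193% in IL1α-/- replicates 1 and 2. Mfge8, a milk fat globule protein that phagocytes also make, stood in other cells at 37.4, 32.0, 42.6 and 104 CPM and in near-empty barcodes at 138, 149, 43.0 and 65.3 CPM in the order WT replicates 1 and 2, IL1α-/- replicates 1 and 2. Ltf, whose lactoferrin is an iron-binding milk protein, stood in near-empty barcodes at 29.0, 81.4, 12.1 and 0.817 CPM, and its log2 fold change of -3.52 did not pass in edgeR (adjusted p = 0.0806).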
